A study of Homo sapiens with 36 samples.

Results

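RNA was compared in a U2OS line, from a human osteosarcoma, with a stable copy of the glucocorticoid receptor isoform GR alpha, between cells transfected with siRNA labelled for CHD9 together with Hic-5 (siCHD9siHic5) and cells given Hic-5 siRNA with a non-targeting siRNA (siHic5siNS). The libraries were chosen by these labels alone and number 12 of the 36 in the series: 6 of siCHD9siHic5 and 6 of siHic5siNS. Each condition has 3 replicates given ethanol vehicle and 3 given 100 nM dexamethasone (dex), a synthetic glucocorticoid, for 8 h, beginning 48 h after transfection, and the replicates were made on different days. Hic-5 siRNA is therefore shared by both conditions, and what differs by label is CHD9 siRNA in place of the non-targeting siRNA. Whether the line is 1 clone is not stated. The other libraries used for comparison are siNSsiNS (non-targeting siRNA alone), siCHD9siNS (CHD9 siRNA without Hic-5 siRNA) and siBRMsiHic5 (siRNA for BRM, the remodeler encoded by SMARCA2, with Hic-5 siRNA), each with the same vehicle and dex arms. The design text states the question behind the double depletion: Hic-5 is held to restrain CHD9 and BRM, so siRNA for each remodeler was added in cells depleted of Hic-5.

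CHD9 belongs to the chromodomain helicases, which use ATP to move nucleosomes and so change how readily transcription factors reach DNA. Hic-5, encoded by TGFB1I1, is a LIM domain adaptor of the paxillin family found at focal adhesions and in the nucleus, where it acts as a coregulator of steroid receptors. The glucocorticoid receptor, encoded by NR3C1, enters the nucleus on binding a glucocorticoid and raises or lowers transcription of target genes, with chromatin remodelers assisting at many of its binding sites.

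CHD9 mRNA was not lower in the libraries labelled siCHD9siHic5; it was higher. In vehicle CHD9 stood at 78, 55.7 and 70.7 scaled CPM (counts scaled to library size by the upper quartile) in siHic5siNS and at 143, 110 and 116 in siCHD9siHic5, and in dex at 69.4, 47.5 and 75.8 against 142, 99.9 and 114. The conditions did not overlap in either hormone arm. Over both arms the rise was 0.87 on the log2 scale (SE 0.163, edgeR quasi-likelihood test, Benjamini-Hochberg adjusted p = 0.000366), or 1.83-fold, with 0.85 in vehicle and 0.89 in dex. For scale, CHD9 averaged 88.6 ± 9.46 CPM (SD, n = 3) in siNSsiNS vehicle libraries and 60.1 ± 8.94 in siCHD9siNS ones. CHD9 mRNA thus goes against the label, so the libraries are called by their label throughout, and no direction below can be assigned to a loss of CHD9 mRNA. Protein was not measured in these files.

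The transcript of Hic-5 was low in both conditions. TGFB1I1 averaged 7.07 ± 3.58 CPM (SD, n = 3) in siHic5siNS vehicle and 7.47 ± 1.59 in siCHD9siHic5 vehicle, with 5.77 ± 1.72 and 7.36 ± 1.27 in dex, against 28.4 in siNSsiNS vehicle. The log2 difference between the conditions was 0.21 (adjusted p = 0.432). Replicate 2 of siHic5siNS, at 11.2 CPM in vehicle, was the highest of its group, and without it the difference was 0.59 (adjusted p = 0.0118). SMARCA2, the transcript of BRM, averaged 35.9 and 43.2 CPM in siHic5siNS vehicle and dex and 35.6 and 35 in siCHD9siHic5, a log2 difference of -0.16 (adjusted p = 0.402). NR3C1 averaged 122 and 90.9 CPM against 106 and 88.7, a log2 difference of -0.13 (adjusted p = 0.429). Neither transcript separated the conditions.

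**Figure D1:**
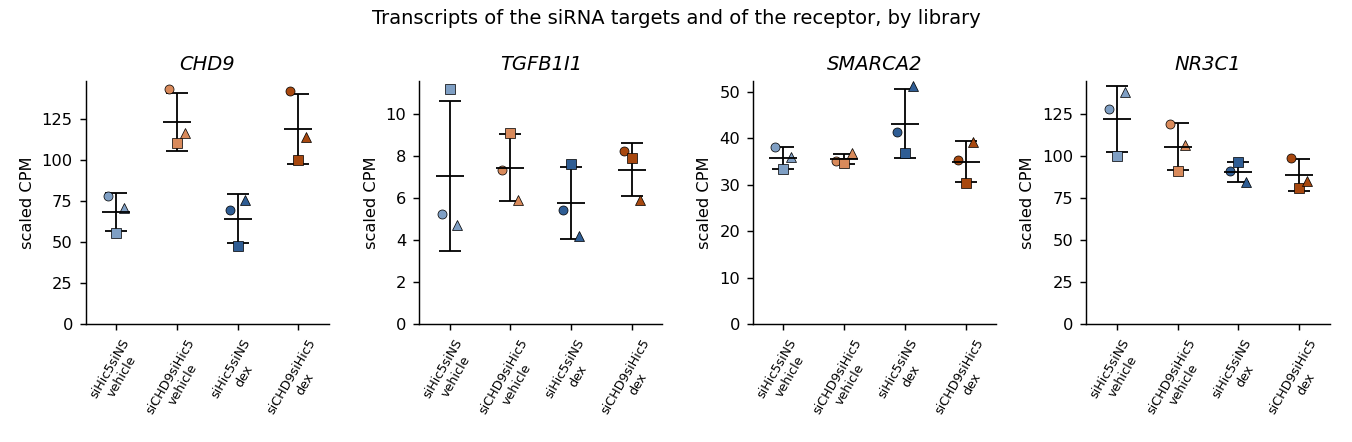
Scaled CPM of CHD9, TGFB1I1 (Hic-5), SMARCA2 (BRM) and NR3C1 (glucocorticoid receptor) in each of the 12 libraries, with blue symbols for siHic5siNS and orange for siCHD9siHic5, pale for vehicle and dark for dex. Circles, squares and triangles are replicates 1, 2 and 3, and bars show the mean and SD of 3 libraries. All 6 CHD9 values of siCHD9siHic5, 99.9 to 143 CPM, lie above the siHic5siNS values of 47.5 to 78.

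The 12 libraries held 30.0 to 46.0 M counts, within the 27.4 to 47.1 M of the whole series. A 28S ribosomal RNA row took 0.406 to 0.716% of counts in siCHD9siHic5 and 0.642 to 0.959% in replicates 1 and 2 of siHic5siNS, but 3.44% and 6.04% in the vehicle and dex libraries of siHic5siNS replicate 3, so results were also computed without replicate 3 of both conditions. Of 11 markers of bone-forming mesenchymal cells, 9 are in the table and summed to 5740 to 7440 CPM, led by COL1A1, SPARC and VIM. None of 6 hepatocyte markers is in the table, 4 of 11 blood markers summed to 7.8 to 13.6 CPM, and 7 of 10 epithelial markers summed to 229 to 346 CPM, mostly KRT8 and KRT18. Endothelial markers, all 6 in the table, summed to 15.1 to 25 CPM in siHic5siNS and 6.12 to 9.45 in siCHD9siHic5, and 5 of 7 neuronal and glial markers to 43.6 to 54.6 and 29.9 to 36.2. The vehicle and dex libraries of a replicate deviated together, so both arms of a replicate were summed before the conditions were compared over both hormones.

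The difference between the conditions was broad. Of 15179 genes tested, 3481 (22.9%) were higher and 4014 (26.4%) lower in the libraries labelled siCHD9siHic5 at an adjusted p under 0.05, 49.4% of the genes in all. The excess of lower calls depended on the processing, with 3940 higher and 3654 lower by TMM scaling factors and 3964 and 3956 by DESeq2. Changes over 2-fold were more often downward, with 916 genes (6.03%) higher and 1751 (11.5%) lower. The median log2 difference of all tested genes was -0.03. In vehicle alone 3336 genes (22.0%) were higher and 3898 (25.7%) lower, 47.7% in all, and in dex alone 3400 (22.4%) were higher and 3852 (25.4%) lower, 47.8% in all. Vehicle and dex shared 6325 of these calls, 87.4% of the vehicle calls and 87.2% of the dex calls, of which 6323 had the same sign. Across genes, which are not independent replicates, the vehicle and dex differences had a Pearson r of 0.950. With so many genes called, a single call says little. The counts in gene groups below are to be read against the shares called among all genes, 22.9% higher and 26.4% lower over both hormones. These shares belong to the main fit. Without replicate 3 of both conditions 2688 genes were higher and 3391 lower, and with the replicate number as a block 4201 and 4716. With single replicates left out 6388 to 6780 genes were called.

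**Figure D2:**
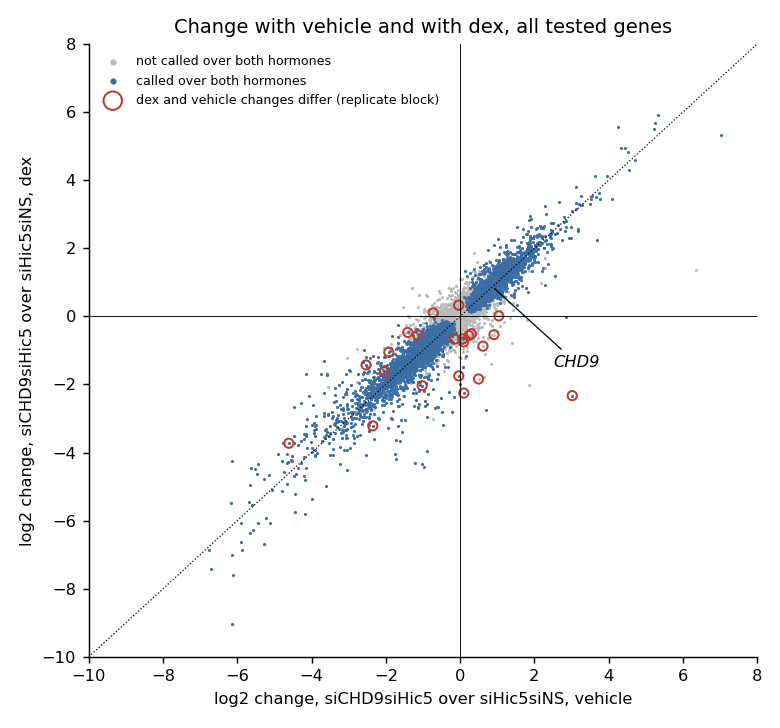
Log2 difference of siCHD9siHic5 from siHic5siNS in vehicle (horizontal) and in dex (vertical) for all 15179 tested genes. Blue points were called over both hormones, red rings mark the 22 genes whose vehicle and dex differences differed in the paired fit, and the dotted line is equality. Points lie along the line (r of 0.950), and CHD9 lies at 0.85 and 0.89.

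Compared without regard to replicate, the dex and vehicle differences departed from each other for 0 genes by edgeR, with 116 at an unadjusted p under 0.05 and 1 called by DESeq2. With vehicle and dex libraries of a replicate treated as pairs, 22 genes (0.145%) were called, 8 (0.0527%) with a higher and 14 (0.0922%) with a lower value in dex. FKBP5, an HSP90 co-chaperone that is a classic glucocorticoid target, shows how a lower level and a larger fold response occurred together. In vehicle FKBP5 stood at 168, 130 and 166 CPM in siHic5siNS and at 83.7, 44.1 and 81.9 in siCHD9siHic5, and in dex at 402, 329 and 420 against 307, 193 and 285. Every siCHD9siHic5 library was below every siHic5siNS library of its arm, with differences of -1.14 in vehicle (adjusted p = 0.00111) and -0.55 in dex (adjusted p = 0.0943). In the paired fit dex raised FKBP5 by 1.31 log2 units in siHic5siNS and by 1.93 in siCHD9siHic5, a difference of 0.62 (SE 0.109, adjusted p = 0.0358).

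In the same direction as FKBP5, GGT5 (a gamma-glutamyltransferase) differed by 1.13, SCNN1A (the epithelial sodium channel alpha subunit) by 0.93, OLAH (a thioesterase that releases fatty acids) by 0.90, MAP2 (a microtubule-associated protein) by 0.83 and HERC3 (a ubiquitin ligase) by 0.80. OLAH rose with dex from 97.6, 97.5 and 99.8 to 189, 155 and 167 CPM in siHic5siNS, and from 3.12, 3.98 and 4.89 to 10.9, 12.7 and 15 in siCHD9siHic5. OLAH thus kept a dex response at a level 16.1-fold lower. In the opposite direction ADORA3, the adenosine A3 receptor, rose with dex in siHic5siNS from 0.0647, 0 and 0.0271 to 0.995, 0.735 and 2.45 CPM, whereas its values in siCHD9siHic5 were 0.26, 0.28 and 0.281 in vehicle and 0.235, 0.25 and 0.331 in dex. The ADORA3 difference was -5.39, and at these low counts its size depends on the fit. NOS2, the inducible nitric oxide synthase, likewise stood at 2.25, 2.39 and 2.06 CPM with dex in siHic5siNS but at 0.559, 0.468 and 0.926 in siCHD9siHic5, with vehicle means of 0.678 and 0.659, a difference of -1.70. LINC00525 (-2.35), RP1L1 (-2.23), PNPLA7 (-1.47) and PGF (-1.45), a VEGF family growth factor, also had a lower difference in dex. In the paired fit dex itself raised 664 genes (4.37%) and lowered 690 (4.55%) in siHic5siNS, 8.92% in all, and raised 490 (3.23%) and lowered 229 (1.51%) in siCHD9siHic5, 4.74% in all. These counts are not a test of a difference, for which the 22 genes are the result.

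Genes known to be induced by glucocorticoids were lower in siCHD9siHic5 in both hormone arms. Of 31 tested, 0 rose and 19 fell over both hormones, beside 26.4% lower among all genes, with a median log2 difference of -0.95, against -0.03 for all genes. In vehicle 15 fell (25.7% of all genes lower) and in dex 18 (25.4%), with none higher in either. TSC22D3, the leucine zipper protein GILZ, stood at 35.2, 40.3 and 38.9 CPM in siHic5siNS vehicle and at 11.2, 7.99 and 16.2 in siCHD9siHic5 vehicle. With dex it stood at 158, 168 and 171 against 36.8, 24.9 and 42.6, so that dex-treated siCHD9siHic5 libraries reached about the vehicle level of siHic5siNS. The log2 difference over both arms was -2.16 (SE 0.212, adjusted p = 9.96e-07).

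PDK4, a kinase that shuts off pyruvate dehydrogenase, stood at 66.5, 120 and 60.6 CPM in vehicle against 6.36, 9.14 and 5.32, and at 333, 322 and 283 in dex against 113, 80.8 and 95.3. Its difference was -1.97 over both arms, -3.58 in vehicle and -1.70 in dex, and no library of the conditions overlapped within an arm. The value over both arms comes from summed counts, so it lies nearer that of dex, where PDK4 counts were higher. ZBTB16, the transcription factor PLZF, averaged 5.13 CPM in siHic5siNS vehicle and 22.2 in dex against 0.845 and 6.19, a difference of -1.99. KLF15, a transcription factor of amino acid and glucose metabolism, fell by 1.99, with 6.09, 6.13 and 7.73 CPM in dex against 1.35, 1.34 and 1.98, and with overlapping vehicle values near 1 CPM. NR3C1 itself, as given above, did not differ in this test. The list was chosen with results of these samples known and is no independent evidence of its direction.

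**Figure D3:**
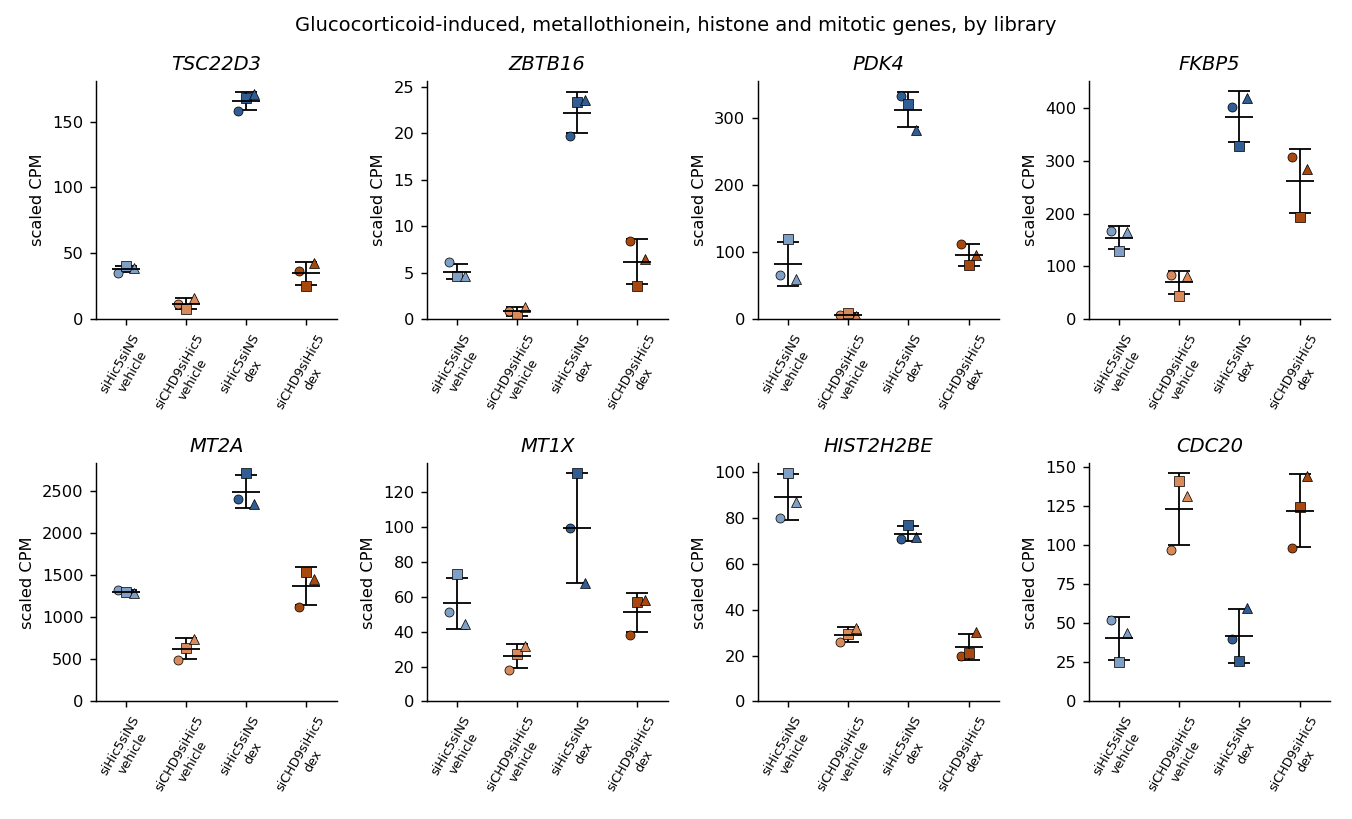
Scaled CPM by library for 8 genes of the glucocorticoid-induced, metallothionein, histone and mitotic groups, with blue for siHic5siNS, orange for siCHD9siHic5, pale for vehicle and dark for dex. Circles, squares and triangles are replicates 1, 2 and 3, and bars show the mean and SD of 3 libraries. TSC22D3 with dex falls from 158 to 171 CPM in siHic5siNS to 24.9 to 42.6 in siCHD9siHic5, whereas CDC20 is higher in siCHD9siHic5 in both arms.

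Metallothioneins, small cysteine-rich proteins that bind zinc, copper and cadmium, fell together. Of 9 listed genes 4 were tested, and all 4 fell over both hormones, in vehicle and in dex (26.4% of all genes lower), with a median of -1.02. MT2A stood at 1330, 1300 and 1290 CPM in siHic5siNS vehicle and at 496, 635 and 745 in siCHD9siHic5 vehicle, and in dex at 2410, 2720 and 2350 against 1120, 1540 and 1460. The groups did not overlap in either arm, and dex raised MT2A by 0.93 in siHic5siNS and by 1.14 in siCHD9siHic5. The difference between the conditions was -0.95 (SE 0.167, adjusted p = 0.000225). MT1E fell by 1.29, MT1X by 1.03 and MT1G by 1.00. Their siNSsiNS vehicle levels were 539 CPM for MT2A and 293 for MT1E, below the siHic5siNS means of 1310 and 563 and beside 625 and 219 in siCHD9siHic5. The metallothionein genes are near-identical neighbours on chromosome 16, so reads can be split between copies.

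MT2A is regulated both by glucocorticoids and by zinc through the factor MTF1, which binds metal response elements. The 250 bases before the starts of MT2A (chr16:56608334-56608583) and MT1X (chr16:56682220-56682469), both on the plus strand of GRCh38.p14 in RefSeq, are shown because these genes moved together. Of the 4 metallothioneins, these 2 were matched in the promoter table. Capitals mark the metal response element core, searched as TGCACNC or TGCGCNC on both strands.
MT2A: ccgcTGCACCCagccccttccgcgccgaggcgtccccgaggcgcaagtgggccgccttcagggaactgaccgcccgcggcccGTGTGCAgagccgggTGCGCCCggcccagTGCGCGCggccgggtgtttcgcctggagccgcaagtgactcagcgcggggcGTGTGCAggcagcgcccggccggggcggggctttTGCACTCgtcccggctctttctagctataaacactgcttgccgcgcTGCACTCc
MT1X: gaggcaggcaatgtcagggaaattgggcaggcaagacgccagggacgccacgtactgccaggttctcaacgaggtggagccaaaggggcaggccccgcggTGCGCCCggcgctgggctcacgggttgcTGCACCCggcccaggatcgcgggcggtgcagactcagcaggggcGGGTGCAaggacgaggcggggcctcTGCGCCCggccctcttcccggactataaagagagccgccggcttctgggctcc
MT2A held 7 matches, 5 forward and 2 reverse, and MT1X held 4, of which 3 were forward and 1 reverse, with none overlapping. Among 35116 promoters of the same length 24.8% held at least 1 match and 0.37% held 4 or more. These letters describe the sequences and are not evidence of binding.

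Replication-dependent histone genes, whose mRNAs normally end in a stem loop without a poly(A) tail, were lower. Of 59 listed genes 21 were tested, and 0 rose and 14 fell over both hormones (26.4% of all genes lower), with 14 lower in each arm and a median of -1.03. HIST2H2BE stood at 80, 99.8 and 87.1 CPM in siHic5siNS vehicle and at 25.8, 29.5 and 32.2 in siCHD9siHic5 vehicle, and at 70.8, 77.1 and 71.7 in dex against 19.8, 21 and 30.4. Its difference was -1.61 (SE 0.182, adjusted p = 3.84e-06), and its siNSsiNS vehicle mean was 29.1 CPM. HIST2H2BF fell by 1.63, HIST1H4K by 1.40 and HIST1H4J by 1.39, each near 7 CPM or less, and reads of such copies can be split between genes. The 28S share given above differed between the conditions in replicate 3, and without replicate 3 of both conditions 14 histone genes were again lower. Its part in the result was otherwise not tested.

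Mitotic genes moved the other way. Of 30 tested, 20 rose and 0 fell over both hormones (17 and 19 rose in vehicle and dex), beside 22.9% higher among all genes, and the median was 0.57. CDC20, the activator of the anaphase promoting complex, stood at 52.3, 25.4 and 43.4 CPM in siHic5siNS vehicle and at 97, 141 and 131 in siCHD9siHic5 vehicle, and at 39.8, 25.8 and 59.8 in dex against 97.7, 124 and 144. The conditions did not overlap, and the difference was 1.58 (SE 0.241, adjusted p = 6.29e-05). The kinesin KIF20A rose by 1.45, the mitotic kinase PLK1 by 1.44 and the checkpoint kinase BUB1 by 1.03. In siNSsiNS vehicle libraries CDC20 averaged 212 CPM and PLK1 123, above both conditions. Without siCHD9siHic5 replicate 3 or without siHic5siNS replicate 2, 13 mitotic genes rose. In bulk libraries a share of cells in mitosis and the RNA per cell cannot be told apart.

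Of 32 DNA replication genes 9 rose and 1 fell, with a median of 0.38, and the number higher is near the 22.9% among all genes. Thymidylate synthase (TYMS) rose by 1.18, the sliding clamp PCNA by 1.14, and the helicase subunits MCM3 and MCM5 by 1.02 and 0.65. The count was 4 without siCHD9siHic5 replicate 3 or siHic5siNS replicate 2, 16 without siHic5siNS replicate 3 and 14 with the replicate number as a block. Targets of p53 rose in 11 of 23 (22.9% of all genes higher) with 0 lower and a median of 0.53. Among them the death receptor FAS stood at 94.1, 94.3 and 79.1 CPM in siHic5siNS vehicle against 227, 212 and 180, and at 91.9, 101 and 60.8 in dex against 211, 216 and 181. FAS rose by 1.24 (SE 0.186, adjusted p = 5.62e-05) with no overlap. TRIAP1, an inhibitor of apoptosis, rose by 1.17, the oxidoreductase TP53I3 by 1.15 and the ribonucleotide reductase subunit RRM2B by 1.07.

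**Figure D4:**
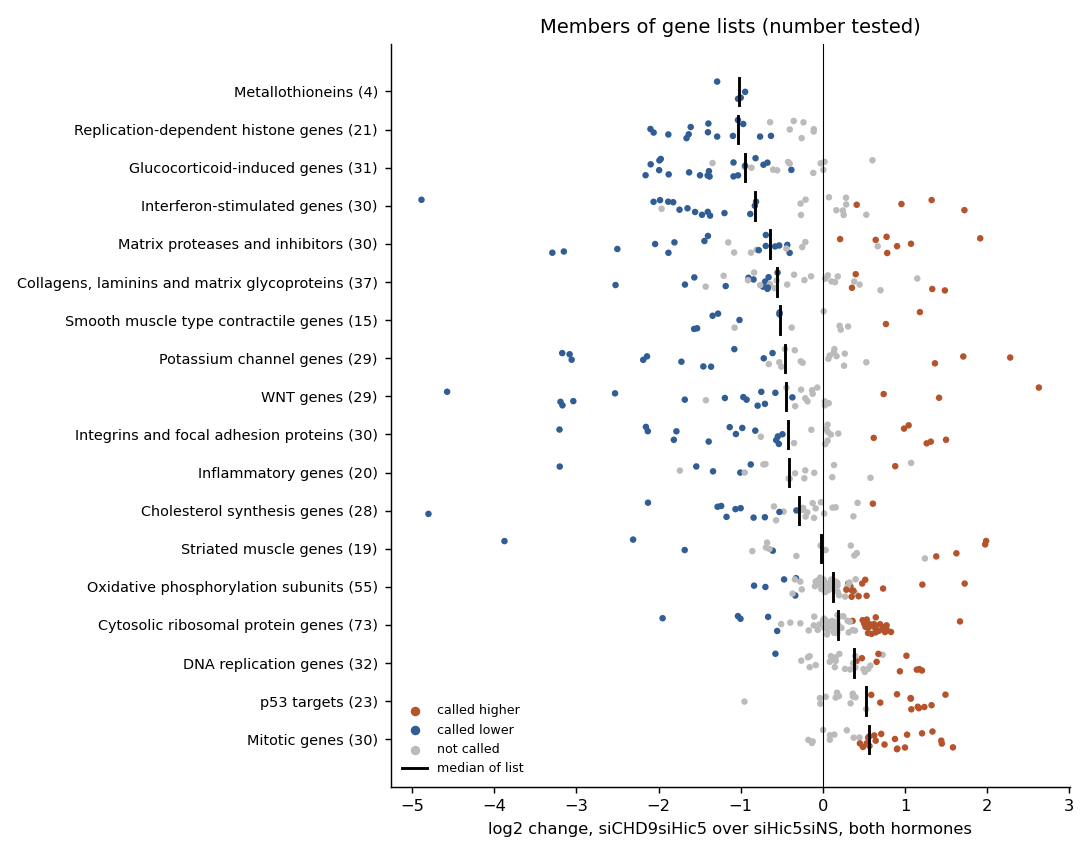
Log2 difference of siCHD9siHic5 from siHic5siNS over both hormones for the tested members of 18 gene lists, the number tested in brackets. Orange points were higher and blue points lower at an adjusted p under 0.05, grey points were not called, and black bars mark list medians. Metallothionein, histone and glucocorticoid-induced genes lie lowest, with medians of -1.02, -1.03 and -0.95, and mitotic genes highest, at 0.57.

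Genes of cell adhesion and matrix changed in both directions. Of 30 integrin and focal adhesion genes 14 fell and 6 rose, beside 26.4% lower and 22.9% higher among all genes, with a median of -0.42. The number that rose is about the share among all genes. ITGB3, the integrin beta 3 chain, stood at 42.9, 33 and 29.7 CPM in siHic5siNS vehicle and at 6.9, 3.64 and 4.09 in siCHD9siHic5 vehicle, with 46.7, 50.1 and 32.4 against 5, 3.21 and 2.69 in dex. All siCHD9siHic5 libraries were lower, and the difference was -3.21 (SE 0.374, adjusted p = 5.23e-06). ITGA2, the alpha 2 chain of a collagen receptor, fell by 2.13, from means of 716 to 153 CPM in vehicle, while its siNSsiNS mean was 281. The adaptors TNS3 and TLN2, which link integrins to actin, fell by 2.15 and 1.78. Of 16 paxillin family and LIM adaptor genes 3 rose and 3 fell, near or below the shares among all genes. FHL2 was up by 1.59 and FHL1 by 0.49, with CSRP1 at -1.40 and LPP at -0.96.

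Of 30 matrix proteases and inhibitors 15 fell (26.4% of all genes lower) and 7 rose, with a median of -0.64. MMP2, a gelatinase, stood at 1300, 1110 and 1160 CPM in siHic5siNS vehicle against 571, 351 and 429, and its difference was -1.44. MMP15 fell by 2.04, tissue plasminogen activator (PLAT) by 1.88 and ADAMTS9 by 1.81. The number lower was 8 without siHic5siNS replicate 2 and 9 without siCHD9siHic5 replicate 3. Of 37 collagen, laminin and matrix glycoprotein genes 12 fell and 4 rose, with a median of -0.56, and the number lower is near the 26.4% among all genes. With the replicate block 20 fell, beside 4716 of all 15179 genes lower in that fit. LAMA1 fell by 1.18, COL16A1 by 0.84 and LAMB1 by 0.73, whereas COL11A1, a fibrillar collagen chain, rose by 1.48, from means of 172 to 455 CPM in vehicle.

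Contractile genes did not move as a unit. Of 15 smooth muscle type genes 7 fell (26.4% of all genes lower) and 2 rose: caldesmon (CALD1) fell by 1.53, tropomyosin TPM1 by 1.34 and calponin CNN3 by 0.53, but smooth muscle actin ACTA2 rose by 1.18. ACTA2 stood at 9.67, 9.24 and 7.02 CPM in vehicle against 17.2, 24.5 and 18.6. The number lower was 4 without siCHD9siHic5 replicate 1 and 3 without replicate 3 of both conditions. Of 19 striated muscle genes 4 rose and 4 fell, near or below the 22.9% higher and 26.4% lower among all genes. The embryonic myosin MYH3 was up by 1.99, TNNI2 by 1.98 and MYH2 by 1.38, and XIRP1 was at -3.88.

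Of 29 WNT pathway genes 14 fell (26.4% of all genes lower) and 3 rose, with a median of -0.44. NOTUM, a secreted enzyme that inactivates WNT ligands, stood at 49.5, 36.9 and 51.8 CPM in siHic5siNS vehicle and at 2.89, 1.03 and 2.31 in siCHD9siHic5 vehicle, with 45.6, 50.9 and 53 against 2.06, 1.37 and 2.36 in dex. The conditions did not overlap in either arm, and the difference was -4.57 (SE 0.339, adjusted p = 7.33e-08). Other negative regulators fell with it, NKD1 by 3.19 and the secreted antagonist SFRP1 by 3.04, and so did the receptor FZD1, by 1.68.

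Interferon-stimulated genes were lower in 15 of 30 (26.4% of all genes lower) and higher in 4, with a median of -0.82. IFIT2, an antiviral RNA-binding protein, stood at 11.3, 13.8 and 15.1 CPM in siHic5siNS vehicle and at 0.578, 0.0932 and 0.432 in siCHD9siHic5 vehicle, with 13.7, 14.9 and 14.7 against 0.854, 0.375 and 0.485 in dex. IFIT2 fell by 4.89 (SE 0.433, adjusted p = 3.61e-07), IFIT1 by 1.65 and HERC6 by 1.37. Cholesterol synthesis genes were lower in 11 of 28 and higher in 1, with a median of -0.29, beside 26.4% lower among all genes. Without replicate 3 of both conditions 7 were lower, near the share in that fit, where 3391 of all 15179 genes were lower. IDI1, an isoprenoid isomerase, fell from means of 110 to 24.3 CPM in vehicle and from 113 to 26.7 in dex, by 2.13 in all. CYP51A1, a sterol synthesis enzyme, fell by 1.00.

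Potassium channel genes were lower in 11 of 29 (26.4% of all genes lower) and higher in 3. KCNA5 fell by 3.08 and the leak channel KCNK3 by 3.06, and KCNT2 rose by 2.28 and KCNC4 by 1.36. Cytosolic ribosomal protein genes rose in 27 of 73 (22.9% of all genes higher) and fell in 5, with a median of 0.19. Without replicate 3 of both conditions, the replicate with the high 28S share, 16 rose and 6 fell. In that fit 2688 of all 15179 genes were higher, so the excess over all genes was smaller than in the main fit. RPL5 had the largest rise of the list, from 292, 162 and 339 CPM in siHic5siNS vehicle to 783, 922 and 850, a difference of 1.67, beside a siNSsiNS mean of 1100. RPL34 fell by 1.95 and RPL35A by 1.00, and RPL23A rose by 0.73. Many ribosomal protein genes have processed copies that can share reads. Oxidative phosphorylation genes rose in 14 of 55, about the 22.9% among all genes, and fell in 5, led by COX6A1 at 1.73 and COX7A2 at 1.21, with COX6C at 0.48 and UQCRQ at -0.84. The number higher was 9 without siCHD9siHic5 replicate 2, without siHic5siNS replicate 1 or without replicate 3 of both conditions.

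Remodelers and coregulators changed member by member. Of 10 chromodomain helicases 3 rose and 3 fell, near the 22.9% and 26.4% among all genes. Beside CHD9, CHD2 rose by 0.81, and CHD5 fell by 1.53 and CHD3 by 0.54. CHD5 stood at 86.4, 66.3 and 97.4 CPM in siHic5siNS vehicle against 32.2, 19 and 35, with a siNSsiNS mean of 19.3. Of 19 SWI/SNF subunits, the complexes that hold BRM, 4 rose and 3 fell, near or below those shares. Among them DPF3 was at 1.03, SS18 at 0.49, ACTL6A at 0.34 and DPF1 at -0.77. The number higher was 2 without replicate 3 of both conditions, where ACTL6A was at 0.28 and no longer called (adjusted p = 0.0692). Of 20 receptor chaperones and coregulators 6 rose and 4 fell, also near the shares among all genes. PPARGC1A, the coactivator PGC-1 alpha, fell by 3.18, from means of 16 to 2.19 CPM in vehicle. HSP90AB1, the HSP90 chaperone that holds the receptor ready for hormone, rose from means of 778 to 2340 CPM in vehicle, by 1.58, beside 2250 in siNSsiNS. NCOA3 and CCAR1, both coactivators, rose by 0.48 and 0.50.

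The 12 largest rises were, apart from TFEC and PCDH17, of genes at 0.437 CPM or less in every siHic5siNS library. TREM2, a myeloid lipid receptor, stood at 0.0647, 0.101 and 0.352 CPM in siHic5siNS vehicle against 5.66, 8.27 and 6.7, a difference of 5.37 (SE 0.603, adjusted p = 3.66e-06). PADI4, which converts histone arginines to citrulline, rose by 5.44. Cornified envelope genes of chromosome 1 were among them, LCE1F at 6.17, LCE1C at 5.59 and LCE1B at 4.66, as were LGALS7 and LGALS7B at 4.78 and 4.70, but these are near-identical copies, and LCE1F had 4 counts over the 6 siHic5siNS libraries. ITM2A rose by 4.69, LCN15 by 4.63 and PLAC1, a placental gene, by 4.43. The transcription factor TFEC rose by 4.04, from means of 1.33 to 20.6 CPM in vehicle. PCDH17, a protocadherin, rose by 3.86, from 2.91, 3.23 and 2.36 CPM in vehicle to 36.3, 38.7 and 30.1.

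Among the 12 largest falls, RBBP8NL fell by 8.35, with 8.33, 22 and 18 CPM in siHic5siNS dex and 6 counts over all siCHD9siHic5 libraries. The noncoding RNA LINC00473 fell by 7.02, from 11.6, 41.2 and 25.5 CPM in vehicle to 0.144, 0.497 and 0.13. PTGES, the inducible prostaglandin E synthase, fell by 6.54, from 1.1, 2.59 and 3.15 CPM in vehicle and 2.39, 6.03 and 5.39 in dex to 0.0589 or less in every siCHD9siHic5 library. The cytokine IL24 fell by 6.32, C8orf4 by 5.78 and BPIFB4 by 5.75. The salivary histatin genes HTN3 and HTN1, which are close copies, fell by 6.53 and 5.86. KANK4 and C5AR2 had 3 and 2 counts over the siCHD9siHic5 libraries, and no fold is given; their siHic5siNS vehicle means were 2.32 and 0.872 CPM.

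The same CHD9 siRNA label without Hic-5 siRNA gave fewer calls in libraries that share none with the comparison above. Of the tested genes 1805 (11.9%) were higher and 2228 (14.7%) lower in siCHD9siNS than in siNSsiNS, 26.6% in all. The comparisons shared 2618 calls, 34.9% of those in Hic-5 depleted cells and 64.9% of those without. Of these, 2447 (93.5%) had the same sign, beside 69.1% of all tested genes. The difference between the comparisons was itself called for 3041 genes (20.0%), 1406 upward and 1635 downward, and for 5728 with the replicate number as a block. CHD9 is among them: its log2 difference was 0.87 with Hic-5 siRNA and -0.40 (adjusted p = 0.0813) without, which differ by 1.27 (SE 0.229, adjusted p = 0.0016).

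**Figure D5:**
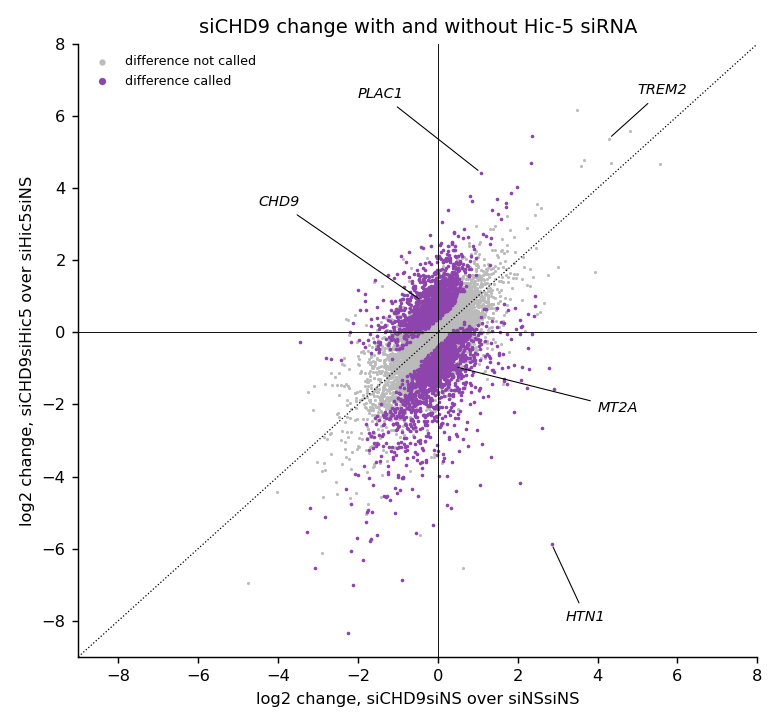
Log2 difference for the CHD9 siRNA label without Hic-5 siRNA (siCHD9siNS from siNSsiNS, horizontal) and with it (siCHD9siHic5 from siHic5siNS, vertical) for all tested genes, both hormones combined. Purple points are the 3041 genes whose differences differed, grey points the rest, and the dotted line is equality. CHD9 lies at -0.40 and 0.87, and MT2A at 0.41 and -0.95.

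The mitotic list is the clearest case, though more of it rose with BRM siRNA added to Hic-5 siRNA, as given below. With CHD9 siRNA but no Hic-5 siRNA 0 of 30 rose and 4 fell. For 17 of 30 the difference between the CHD9 siRNA comparisons was called upward, beside 9.26% of all genes. BUB1, for example, was at 1.03 with Hic-5 siRNA and -0.45 without, differing by 1.48 (adjusted p = 0.000323). MT2A was at -0.95 with and 0.41 without, differing by -1.36 (adjusted p = 0.0012), and for 2 of 4 metallothioneins the difference was called downward, beside 10.8% of all genes. In the glucocorticoid-induced list 8 of 31 fell and 1 rose without Hic-5 siRNA (14.7% and 11.9% of all genes), and the difference was called downward for 7 and upward for 0. Several lists moved in the same direction in both settings. Without Hic-5 siRNA 15 of 21 histone genes fell, 14 of 30 interferon-stimulated genes fell, 14 of 29 WNT genes fell and 13 of 23 p53 targets rose, beside 14.7% lower and 11.9% higher among all genes there. FAS was at 1.30 without and 1.24 with Hic-5 siRNA, and ACTA2 at 1.36 and 1.18.

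The largest differences upward among genes also called with Hic-5 siRNA were PLAC1 (3.35), CCDC64B (3.13), PADI4 (3.08), AATBC (3.05), BLNK (2.97) and EXPH5 (2.96). CCDC64B was no longer called in 6 of the 12 fits that leave out a replicate, at 2.54 to 2.96. EXPH5, a vesicle trafficking protein of keratinocytes, stood at 2.62, 1.41 and 2.25 CPM in siHic5siNS vehicle against 18.5, 14.6 and 17.9 in siCHD9siHic5, while siNSsiNS and siCHD9siNS vehicle libraries averaged 13.5 and 13.8. The largest downward were HTN1 (-8.71), TNFAIP6 (-6.22), RBBP8NL (-6.11), NFIA-AS2 (-5.29) and C3orf36 (-5.27), with C5AR2 among them but at 2 counts in siCHD9siHic5, all with averages of 0.539 CPM or less in siNSsiNS and siCHD9siNS, so these fitted sizes rest on few counts.

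BRM siRNA added to Hic-5 siRNA was compared with the same siHic5siNS libraries and called 3883 genes (25.6%) higher and 3568 (23.5%) lower, 49.1% in all. Because these libraries are shared, values are only set side by side. SMARCA2 was at -2.26 in siBRMsiHic5 and -0.16 in siCHD9siHic5, and CHD9 at -0.40 (adjusted p = 0.0518) and 0.87. CHD9 was higher in siCHD9siHic5 than in siBRMsiHic5 itself, by 1.27 (adjusted p = 1.34e-05). TSC22D3 was at -1.85 with BRM siRNA and -2.16 with CHD9 siRNA, HIST2H2BE at -1.93 and -1.61, CDC20 at 1.67 and 1.58, RPL5 at 1.56 and 1.67, and ITGA2 at -2.92 and -2.13. Others parted: IDI1 was at 0.02 against -2.13, TPM1 at 0.03 against -1.34, FAS at -0.17 against 1.24 and RPL34 at -0.04 against -1.95. Set directly against each other, siCHD9siHic5 and siBRMsiHic5 differed for 3419 genes (22.5%) upward and 4359 (28.7%) downward, 51.2% in all. IDI1 differed by -2.15 (adjusted p = 8.11e-06) and FAS by 1.41 (adjusted p = 1.74e-05). The 28S row took 4.4 to 5.76% of counts in replicates 2 and 3 of siBRMsiHic5, and 0.511% and 0.813% in replicate 1. In siCHD9siHic5 it took 0.406 to 0.716%. The comparisons with siBRMsiHic5 were not refitted without those replicates, and the part of the 28S share in them was not tested.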

How the data were processed

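The 36 libraries, in 12 groups of 3, were made from total RNA. A 28S ribosomal RNA row took 0.324 to 7.51% of their counts. Per the submitters' processing notes, reads were mapped with TopHat2 2.1.1 to GRCh38 (hg38) and edgeR was used; counting and strand settings are not stated there. The table the authors deposited holds whole-number counts for 15186 genes; its name speaks of normalised CPM, but the values are raw counts. Groups follow the sample titles. Genes with upper-quartile scaled CPM over 1 in at least 3 libraries were tested (15179) with edgeR 4.0.16 (R 4.3.3), quasi-likelihood test, upper-quartile factors, Benjamini-Hochberg adjustment over all tested genes, called under 0.05. Each SE was derived from the test, as the absolute log2 difference divided by the square root of its F statistic. Vehicle and dex contrasts came from a fit of all 12 groups (24 residual degrees of freedom). Over both hormones, counts of the vehicle and dex library of a replicate were summed first (12 residual degrees of freedom), since their residuals correlated at 0.59 to 0.8. A difference over both hormones thus weighs the arm with more counts of a gene and is not the mean of the arms. A fit of 12 separate libraries with hormone as a covariate, limma 3.58.1 and DESeq2 1.42.0 were alternatives. Between the conditions, same-number residual correlations were 0.23 to 0.58 over 10491 genes, and -0.62 to 0.41 for other numbers. These ranges overlapped, so the replicate number entered as a block only in alternative fits. Replicate libraries differed well beyond sampling noise: over 12 replicate pairs the lowest ratio of chi-square to its degrees of freedom was 32.1. The median biological coefficient of variation was 15.9%. Libraries held 30.0 to 46.0 M counts, and precision is limited by 3 replicates. Scripts were tested on simulated counts. Members and 41 gene lists were chosen with earlier results of these data known, so lists are given by counts and medians alone. Named genes are the siRNA targets and NR3C1, the 12 largest rises and falls over both hormones with no overlap in either arm and at least 1 CPM in the higher group, up to 4 called members of each list by smallest p, and the 6 largest differences each way for hormone and for Hic-5 siRNA; a few of these are not reported here. Gene lengths and GC content came from GENCODE transcripts and promoters from RefSeq.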

Additional observations from a re-analysis of the deposited data

Results flagged for a closer look

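The difference for the CHD9 siRNA label departed between cells with and without Hic-5 siRNA for 3041 genes by a test of the difference itself (edgeR quasi-likelihood test on summed counts). CHD9 differed by 1.27, PLAC1 by 3.35, CCDC64B by 3.13, PADI4 by 3.08, AATBC by 3.05, BLNK by 2.97 and EXPH5 by 2.96, each higher with Hic-5 siRNA. HTN1 differed by -8.71, TNFAIP6 by -6.22, RBBP8NL by -6.11, C5AR2 by -5.98 (a fitted value on 2 counts in siCHD9siHic5), NFIA-AS2 by -5.29 and C3orf36 by -5.27. CCDC64B lost its call when single replicates were left out, with values of 2.54 to 2.96 in the 6 such fits, and RBBP8NL did so without siCHD9siNS replicate 2, at -4.24.

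Between dex and vehicle, 22 genes differed in the paired fit and 0 in the unpaired one. GGT5 differed by 1.13, SCNN1A by 0.93, OLAH by 0.90, MAP2 by 0.83, HERC3 by 0.80 and FKBP5 by 0.62, each with a higher value in dex. ADORA3 differed by -5.39, LINC00525 by -2.35, RP1L1 by -2.23, NOS2 by -1.70, PNPLA7 by -1.47 and PGF by -1.45.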

How the results depend on the processing

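The 7495 calls over both hormones numbered 7594 with TMM factors, 7457 with no scaling factors, 7497 with no filter, 7920 with DESeq2, 7393 with the 12 libraries alone, 8917 with the replicate block, 9790 with hormone as a covariate of 12 separate libraries, 7852 with limma-voom and a correlation between arms, and 6388 to 6780 with single replicates left out. TMM factors gave 3940 higher and 3654 lower, and DESeq2 3964 and 3956, in place of 3481 and 4014. Alternatives chosen after seeing the data gave 7688 with GC and length offsets, 8951 with these and the replicate block, and 6079 without replicate 3 of both conditions. The offsets alone gave 3837 higher and 3851 lower. In the main fit the median log2 difference was 0.13 in the 2966 genes of lowest transcript GC content and -0.13 in the 2966 of highest. Vehicle calls ranged from 6108 to 6522 and dex calls from 6177 to 6533 with single replicates left out. Calls for the difference of dex and vehicle rose from 0 to 22 with the replicate block and to 1 with DESeq2, and stayed at 0 with single replicates left out. Calls for the difference with and without Hic-5 siRNA rose from 3041 to 5728 with the replicate block and fell to 2086 to 2978 with single replicates left out. Apart from these counts and those given beside the lists, the replicate block ended the call of no gene described in the report. No named gene changed sign where it was called. Depth sets the limit for genes near 0, such as KANK4 and C5AR2.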

Other observations

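Several smaller groups are described here by count over both hormones (22.9% of all genes higher, 26.4% lower). Targets of TGF-beta rose in 5 of 24 and fell in 8, with the inhibitory SMAD6 down by 3.38, BAMBI by 1.44, TGFB3 by 1.40 and SNAI2 by 0.96. SMAD6 stood at 15.6, 12.2 and 16.7 CPM in siHic5siNS vehicle and at 1.5, 1.03 and 2.31 in siCHD9siHic5 vehicle, with no overlap. Of 12 osteoblast and bone genes 1 rose and 5 fell: osteopontin (SPP1) fell by 2.57, osteoprotegerin (TNFRSF11B) by 1.81, MSX2 by 0.81 and SPARC by 0.67. Of 17 circadian clock genes 1 rose and 5 fell, with NPAS2, a partner of ARNTL, down by 2.01 from 51, 74.7 and 70.8 CPM in vehicle to 15.1, 19.4 and 15.2. Without Hic-5 siRNA NPAS2 was at -0.23, and the difference of -1.78 was called (adjusted p = 6.51e-05). VEGF, endothelin and angiogenic genes fell in 8 of 24 with 0 higher, with EDN3 down by 2.81 and PDGFRB by 1.51, and 5 fell without siCHD9siHic5 replicate 3 and 4 without replicate 3 of both conditions. Beside them the endothelial markers PECAM1, VWF and CDH5 fell by 2.35, 2.43 and 1.93 (3 of 6 markers, and 5 without siHic5siNS replicate 2), all at 4.77 CPM or less in every library; their part in the result was not tested.

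Stress pathway genes were called in both directions. In Hic-5 depleted cells the counts over both hormones were near or below the shares among all genes, 22.9% higher and 26.4% lower. The lysosome and autophagy genes that fell were the exception. Of 28 ATF4 and unfolded protein response genes 6 rose and 5 fell, with DNAJC3 down by 1.21 and HERPUD1 and DNAJB9 each by 0.90. Without Hic-5 siRNA 14 of the 28 rose and 2 fell, beside 11.9% higher and 14.7% lower among all genes, and the difference was called downward for 10 (10.8% of all genes) and upward for 0. HERPUD1 was at 0.91 without Hic-5 siRNA. Of 21 NRF2 targets 4 rose and 2 fell, with AKR1B10 up by 1.66 and ME1 by 1.03. Of 24 hypoxia and glycolysis genes 1 rose and 4 fell, led by ALDOC at -1.63, and 8 fell with the replicate block and 7 without siCHD9siHic5 replicate 3 or without siHic5siNS replicate 3. Of 17 lysosome and autophagy genes 1 rose and 6 fell, with CTSD and GLA each down by 1.16 and WIPI1 by 1.15. Of 10 heat shock genes 2 rose and 1 fell, and 1 rose without siCHD9siHic5 replicate 3, without siHic5siNS replicate 2 or without replicate 3 of both conditions. Of 14 genes of the siRNA machinery 2 rose and 4 fell, with AGO2, the slicer of RNA interference, down by 1.00 and by 1.02 without Hic-5 siRNA.

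Inflammatory and growth factor response genes varied among replicates. In the main fit the numbers lower were near or below the 26.4% among all genes. With the replicate block 4716 of all 15179 genes were lower, beside 4014 in the main fit. Of 20 inflammatory genes 1 rose and 5 fell, 10 fell with the replicate block, 2 without siCHD9siHic5 replicate 1 or 3, 3 without siHic5siNS replicate 3 and 0 without replicate 3 of both conditions. Of 18 immediate early genes 1 rose and 2 fell, and 7 fell with the replicate block and 5 without siCHD9siHic5 replicate 2. NR4A2, an orphan nuclear receptor, was at 19.8, 258 and 54.1 CPM in siHic5siNS vehicle and at 1.21, 8.2 and 0.735 in siCHD9siHic5, so replicate 2 was the highest in both conditions. EGR1 rose by 1.70. Of 17 ERK feedback genes 0 rose and 3 fell, with PHLDA1 down by 2.69, and 5 fell with the replicate block and 1 without replicate 3 of both conditions.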
